A study of Tachysurus vachellii with 6 samples.

Results

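The miR-200 group, miR-203 and miR-205, miRNAs known from epithelia, were followed in extracellular vesicles isolated from liver tissue of Pelteobagrus vachellii (Tachysurus vachellii), the darkbarbel catfish. Rows of the deposited miRNA table were taken when they were named as miR-141, miR-200, miR-203, miR-205 or miR-429 of any species, with any letter, arm or suffix. This gave 17 rows with 15 distinct sequences, out of 841 entries in the whole table: 9 sequences named miR-200, 3 named miR-429, 2 named miR-203, 1 named miR-205 and 0 named miR-141. An entry here is a sequence with the counts of all its listings added together. Names are printed as deposited. The prefix stands for the species of the miRNA that was matched, and no source used here explains the suffixes.

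The study compared 3 libraries of hypoxia, 4 h in sealed water bubbled with nitrogen to 1.0 mg/L of dissolved oxygen, with 3 libraries of normoxia at 6.8 mg/L, also labelled 4 h. The hypoxia libraries held 2038301 to 7234216 counts and the normoxia libraries 5572737 to 8497217. All fish had been acclimated for 2 weeks and fasted for 48 h, and no strain or genotype is given. The labels name the tissue as liver and do not tie a library to its own fish or pool of fish, so p-values measure the spread between these samples only. miR-122, the defining miRNA of hepatocytes, was the most abundant entry of the table, with tni-miR-122_R-1 at 228943 ± 20041 CPM in the hypoxia libraries, against 246967 ± 6027 CPM in those of normoxia (mean ± SD, n = 3 each, CPM being the count scaled to the library total with TMM factors). Hypoxia replicate 1 was the shallowest library and had the fewest entries detected, 462 against 643 to 725 in the other 5.

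In vertebrates the miR-200 group comprises miR-200a, miR-200b, miR-200c, miR-141 and miR-429, which are made from a pair of gene clusters and differ in the seed, the bases at positions 2 to 8 that pair with target mRNAs. In mammals they repress the transcription factors ZEB1 and ZEB2, which themselves silence E-cadherin, and so hold cells in an epithelial state. miR-205 represses the same factors in mammals, and miR-203 restrains the stem-cell factor p63 in mouse and human skin. In mammalian liver the miR-200 group is known more from bile duct epithelium than from hepatocytes, and it is also known from intestine and pancreas.

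The sequences below are the most abundant of each family number and arm, and those on which the later comparisons of seeds and 3′ ends turn. They were copied from the deposited table as DNA letters, 5′ to 3′, with the seed in capitals.
dre-miR-200a-3p_R+1: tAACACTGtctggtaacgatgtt
dre-miR-200c-3p_2ss4TC9CT: tAACACTGtctggtaatgatgc
dre-miR-200b-3p: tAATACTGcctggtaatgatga
ipu-miR-200c_R-1: tAATACTGcctggtaatgatg
dre-miR-200c-3p_R+1: tAATACTGcctggtaatgatgca
oni-miR-429b: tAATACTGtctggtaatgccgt
ami-miR-429-3p_R+3: tAATACTGtctggtaatgccgtt
dre-miR-200a-5p_1ss10GT: cATCTTACctgacagtgctgga
dre-miR-200b-5p: cATCTTACgaggcagcattgga
oni-miR-203a_L+1_1ss22GT: gTGAAATGtttaggaccacttt
ipu-miR-203c: tTGAACTGttaagaaccactgc
ccr-miR-205_R+1: tCCTTCATtccaccggagtctgt

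The 15 sequences held 6 different seeds. The seed AATACTG was shared by 7 sequences, the 3p sequences named miR-200b, those named miR-429 and all but 1 of those named miR-200c. The seed AACACTG was shared by 3 sequences, dre-miR-200a-3p_R+1, the longer aca-miR-200a-3p_R+2 and dre-miR-200c-3p_2ss4TC9CT. Both miR-200 5p arms had ATCTTAC, while miR-203a, miR-203c and miR-205 had a seed each that no other entry of the table carried. The entry dre-miR-200c-3p_2ss4TC9CT is named miR-200c but has the seed of dre-miR-200a-3p_R+1. Its precursor was not looked up, so the name alone does not tell which member of the miR-200 group it is, miR-141 included. Counting from 1 at the 5′ end, it differed over 22 bases from dre-miR-200c-3p_R+1 by T4C and C9T, with the base of dre-miR-200c-3p_R+1 first, and the change at position 4 lies in the seed. From dre-miR-200a-3p_R+1 it differed by C17T and T22C, outside the seed, with the base of miR-200a first. The sequence ipu-miR-200c_R-1 is the first 21 bases of dre-miR-200b-3p and also of dre-miR-200c-3p_R+1, so the letters do not tell which of these precursors its reads came from. Lengths ran from 21 to 24 bases, and GC content from 33.3% to 52.2% with a median of 39.1%, against a median of 45.5% over all 841 entries.

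Levels spread over more than 3 orders of magnitude, and 1 sequence held most of the counts. dre-miR-200a-3p_R+1, the miR-200a arm that carries the AACACTG seed, measured 1576, 1829 and 1530 CPM in hypoxia replicates 1, 2 and 3, against 2037, 2216 and 1818 CPM in normoxia replicates 1, 2 and 3. Its rank by CPM among the 841 entries was 52, 57 or 58 in the hypoxia libraries and 50 or 51 in the normoxia libraries. The groups met at hypoxia replicate 2, which lay just above normoxia replicate 3, and the other hypoxia libraries lay below all of normoxia. The log2 fold change of hypoxia over normoxia was -0.30 ± 0.13 (SE), and it did not pass the threshold of 0.05 (edgeR quasi-likelihood test with Benjamini-Hochberg adjustment over all entries tested, adjusted p = 0.238).

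Its strand partner, dre-miR-200a-5p_1ss10GT, was present at a few CPM. It measured 4.38, 6.77 and 4.63 CPM in hypoxia replicates 1, 2 and 3 and 6.54, 8.03 and 7.09 CPM in normoxia, with 9 counts behind the lowest of these values. The groups overlapped, and the log2 fold change was -0.42 ± 0.34 (edgeR, adjusted p = 0.532). The 3p arm exceeded the 5p arm 320 ± 45.9-fold in hypoxia and 281 ± 27.9-fold in normoxia (mean of the count ratio ± SD, n = 3 each), a difference within the spread between libraries.

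dre-miR-200b-3p, the main sequence with the AATACTG seed, measured 427, 568 and 453 CPM in hypoxia replicates 1, 2 and 3, against 560, 577 and 616 CPM in normoxia. Hypoxia replicates 1 and 3 were lower than every normoxia library, and hypoxia replicate 2 lay among them. The log2 fold change of -0.27 ± 0.14 missed the threshold (edgeR, adjusted p = 0.325). The 21-base form ipu-miR-200c_R-1 measured 168, 130 and 120 CPM in hypoxia and 115, 127 and 128 CPM in normoxia. It was highest in hypoxia replicate 1, the library in which dre-miR-200b-3p was lowest, and the log2 fold change was 0.17 ± 0.17 (edgeR, adjusted p = 0.625). The 24-base form hsa-miR-200b-3p_R+2 was the third sequence of this set, at 5.35, 13.3 and 11.96 CPM in hypoxia and 13.1, 13.1 and 8.72 CPM in normoxia. Its lowest value, again in hypoxia replicate 1, rested on 11 counts.

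dre-miR-200c-3p_R+1, the only AATACTG sequence that continues as miR-200c past the 21 shared bases, was rare. It measured 9.72, 6.495 and 6.54 CPM in hypoxia, against 5.83, 4.44 and 6.54 CPM in normoxia, from 20 to 49 counts a library. The log2 fold change of 0.40 ± 0.35 was about as large as its standard error (edgeR, adjusted p = 0.579). The miR-200c-named sequence with the miR-200a seed, dre-miR-200c-3p_2ss4TC9CT, was more abundant, at 82.6, 79.1 and 68.3 CPM in hypoxia and 68.5, 89.1 and 74.3 CPM in normoxia. Its groups lay over each other, with a log2 fold change of -0.02 ± 0.17 (edgeR, adjusted p = 0.980).

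miR-429, the further family with the AATACTG seed, lay at close values in all libraries. oni-miR-429b measured 112, 121 and 107 CPM in hypoxia replicates 1, 2 and 3 and 112, 112 and 118 CPM in normoxia, for a log2 fold change of -0.01 ± 0.14 (edgeR, adjusted p = 0.982). Its form with 1 more T at the 3′ end, ami-miR-429-3p_R+3, measured 23.3, 22.0 and 19.0 CPM in hypoxia and 19.5, 21.2 and 19.1 CPM in normoxia, for a log2 fold change of 0.10 ± 0.19 (edgeR, adjusted p = 0.823). A form with 1 further T, ami-miR-429-3p_R+4, had 0 to 13 counts in hypoxia and 7 to 19 counts in normoxia. The summed level of the 3 miR-429 sequences was 136 ± 7.77 CPM in hypoxia and 136 ± 2.27 CPM in normoxia.

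miR-203a, the skin-differentiation miRNA, had its highest value in a normoxia library. oni-miR-203a_L+1_1ss22GT, which the table also lists as dre-miR-203a-3p_1ss22GT, measured 74.9, 87.9 and 90.1 CPM in hypoxia replicates 1, 2 and 3, against 141.6, 89.0 and 116 CPM in normoxia. The groups met at hypoxia replicate 3 and normoxia replicate 2, which were close to each other. The log2 fold change was -0.45 ± 0.19 (edgeR, adjusted p = 0.251), and it was -0.23 without normoxia replicate 1. ipu-miR-203c was at 0 in 4 of the 6 libraries, with 11 counts in hypoxia replicate 3 and 5 counts in normoxia replicate 3. A count of 0 allows up to 3 counts, which is 1.47 CPM in hypoxia replicate 1 and 0.353 to 0.538 CPM in the other libraries on their unscaled totals. Such limits cover counting error only, since no molecular identifiers are mentioned for these PCR-amplified libraries.

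miR-205, the other regulator of ZEB factors, was lowest in hypoxia replicate 2, the hypoxia library in which miR-200a-3p was highest. ccr-miR-205_R+1, also listed as ssa-miR-205b-5p_R+1, measured 140, 90.4 and 134 CPM in hypoxia replicates 1, 2 and 3 and 115, 113 and 99.2 CPM in normoxia. Hypoxia replicates 1 and 3 lay above all of normoxia and hypoxia replicate 2 below it. The log2 fold change was 0.15 ± 0.19 (edgeR, adjusted p = 0.724), and it was 0.34 without hypoxia replicate 2.

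**Figure D1:**
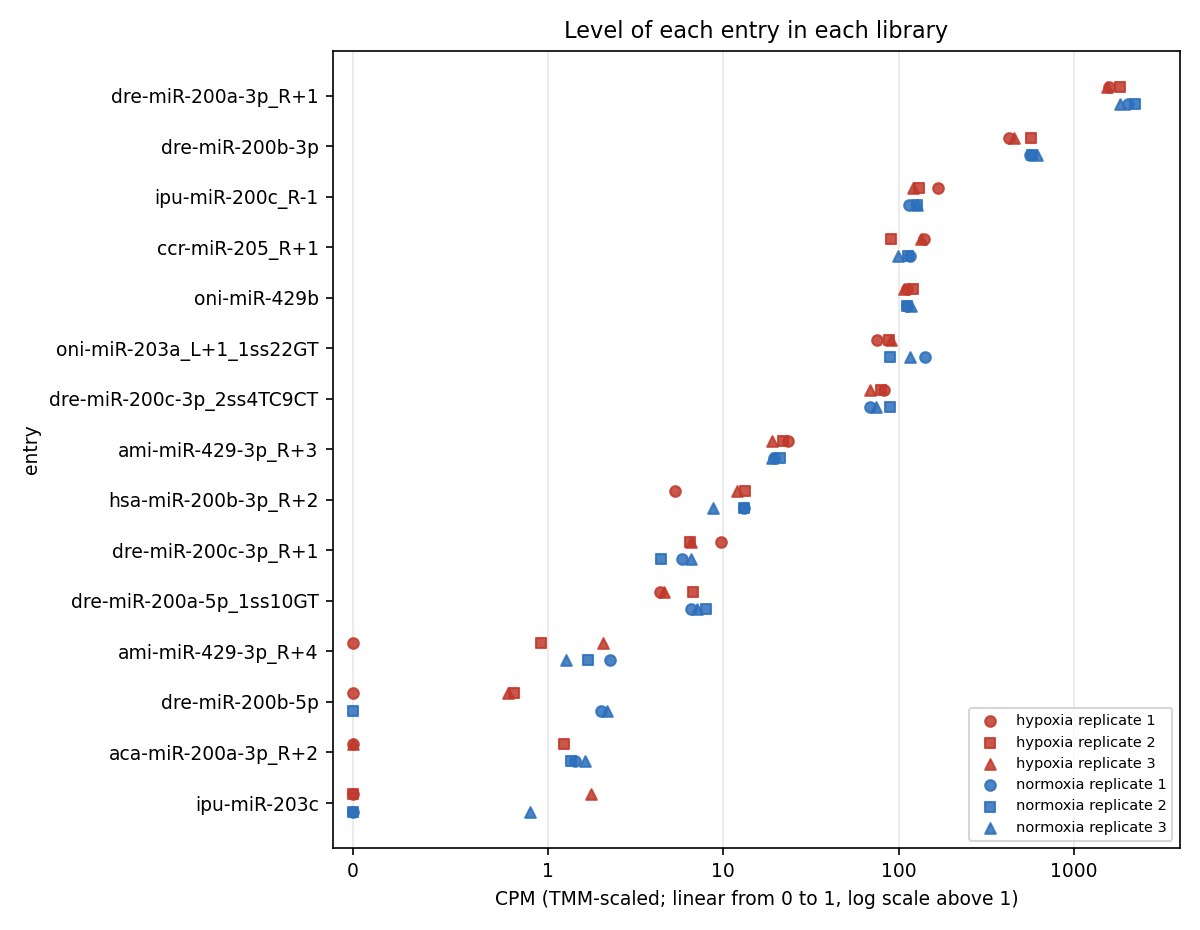
Level of the 15 sequences in each library, in CPM on an axis that is linear from 0 to 1 and logarithmic above 1, with hypoxia in red above normoxia in blue and a marker shape for each replicate number. dre-miR-200a-3p_R+1 lies at 1530 to 2216 CPM and the next, dre-miR-200b-3p, at 427 to 616 CPM, while the 4 rarest sequences have a library at 0.

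Of the 15 sequences, 12 passed the filter on low counts and were tested, and 3 did not: dre-miR-200b-5p, aca-miR-200a-3p_R+2 and ipu-miR-203c. Of those 3, aca-miR-200a-3p_R+2 had 0, 9 and 0 counts in hypoxia replicates 1, 2 and 3, against 12, 8 and 9 counts in normoxia, and dre-miR-200b-5p had 0 to 6 counts in hypoxia and 0 to 17 in normoxia. Scaled to CPM, aca-miR-200a-3p_R+2 was lower in every hypoxia library, at 0 to 1.24 CPM, against 1.37 to 1.64 CPM in normoxia, from few counts. None of the 12 passed the threshold in edgeR, where 14 of all 519 tested entries did (2.7%), and none passed in DESeq2, where 9.83% of entries did, or in limma-voom, where 4.24% did. An unadjusted p under 0.05 was reached by 2 of the 12 in each of these 3 tests, against 18.5% of all entries in edgeR, 19.5% in DESeq2 and 18.9% in limma-voom. In edgeR the 2 were dre-miR-200a-3p_R+1 and oni-miR-203a_L+1_1ss22GT. The groups overlapped in each of the 12, where they did not overlap in 25.8% of all tested entries. A fold change below 1 was found for 8 of the 12, against 55.3% of all tested entries. The median log2 fold change was -0.07 over the 12 and -0.04 over all 519 entries.

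**Figure D2:**
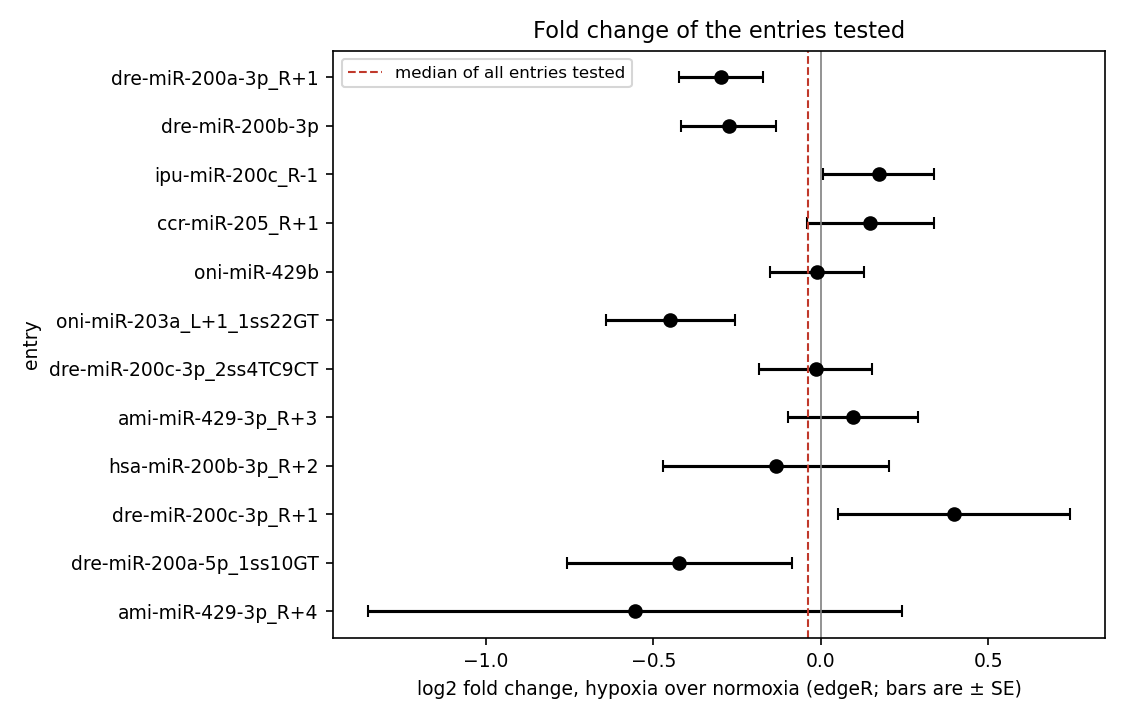
Log2 fold change of hypoxia over normoxia for the 12 sequences tested, ordered by abundance, with bars of 1 SE and a dashed line at the median of all entries tested (-0.04). The 2 most abundant sequences lie at -0.30 and -0.27, oni-miR-203a_L+1_1ss22GT lies at -0.45, and the widest bar belongs to the rarest of them, ami-miR-429-3p_R+4.

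Added together, the 15 sequences were lower in the hypoxia libraries. Their summed level was 2623, 2956 and 2549 CPM in hypoxia replicates 1, 2 and 3, against 3200, 3372 and 3017 CPM in normoxia, so that the groups did not overlap. The means were 2709 ± 217.1 CPM in the hypoxia libraries and 3196 ± 178 CPM in the normoxia libraries (SD, n = 3 each), a ratio of 0.848. On the log2 scale the ratio was -0.24, and it was -0.22 without hypoxia replicate 1. As a share of all counts the sequences took 0.275 ± 0.0179% in hypoxia and 0.315 ± 0.0157% in normoxia. The sum was chosen with results known and is given as a description with no test. Without dre-miR-200a-3p_R+1 the other 14 summed to 1047, 1128 and 1019 CPM in hypoxia and 1163, 1156 and 1199 CPM in normoxia, a ratio of 0.908 with groups that again did not overlap. The lower sum of these 14 rests mostly on dre-miR-200b-3p, with means of 483 CPM in hypoxia and 584 CPM in normoxia. Some lay the other way, such as ipu-miR-200c_R-1 at means of 139 and 123 CPM and ccr-miR-205_R+1 at 121 and 109 CPM. Of all 519 single entries tested, 25.8% also had groups that did not overlap, in either direction. That share is for single entries and is no matched background for a lower sum. In vesicles of a whole tissue, fewer vesicles from a cell type and less of a miRNA in each vesicle cannot be told apart.

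Libraries also differed in how log2 CPM depended on GC content over 329 entries of at least 10 CPM. The slopes per 10 points of GC were 0.106, -0.061 and 0.116 in hypoxia replicates 1, 2 and 3 and -0.012, -0.079 and -0.070 in normoxia. Hypoxia replicates 1 and 3, in which GC-rich entries were higher, were also the libraries with the lowest sums. With offsets for GC content and length, an alternative chosen after seeing the data, the log2 fold change of dre-miR-200a-3p_R+1 was -0.10 (edgeR, adjusted p = 0.630), and that of dre-miR-200b-3p was -0.11 (edgeR, adjusted p = 0.617). Under the same offsets oni-miR-203a_L+1_1ss22GT was at -0.29 (edgeR, adjusted p = 0.473) and dre-miR-200a-5p_1ss10GT at -0.40 (edgeR, adjusted p = 0.533). Most of the other tested sequences were positive, and the median log2 fold change over the 12 was 0.11, against -0.07 without the offsets. The offsets take GC content and length together, so their parts in these fold changes cannot be told apart. The part of the GC trend in the lower sum was not tested.

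The sequences with the AACACTG seed took 63.5 ± 0.97% of the counts of the 15 sequences in hypoxia and 65.7 ± 2.81% in normoxia. Those with the AATACTG seed took 28.6 ± 0.48% in hypoxia and 27.0 ± 2.40% in normoxia. The count ratio of the AACACTG to the AATACTG set was 2.23, 2.22 and 2.22 in the hypoxia libraries, against 2.54, 2.70 and 2.11 in normoxia, so the hypoxia libraries lay within the range of normoxia and nearer to each other. The 3 miR-429 sequences took 5.01 ± 0.15% in hypoxia and 4.25 ± 0.30% in normoxia, with groups that did not overlap, while the summed miR-429 level in CPM differed by less than the spread between libraries. ipu-miR-200c_R-1 took 5.17 ± 1.07% in hypoxia and 3.86 ± 0.33% in normoxia. Of the 15 sequences, 5 had a higher share of their summed counts in every hypoxia library than in every normoxia library: ipu-miR-200c_R-1, oni-miR-429b, ami-miR-429-3p_R+3, dre-miR-200c-3p_R+1 and dre-miR-200c-3p_2ss4TC9CT. None had a lower one. Divided by the same summed counts, 25.2% of all 519 tested entries were higher in every hypoxia library and 4.24% were lower. For the 15 sequences, untested ones included, these were 33.3% and 0%. The summed counts were themselves a lower share of all counts in every hypoxia library, which shifts such ratios upward in hypoxia. The shares add up to the whole, so they are not independent of each other. The share of dre-miR-200a-3p_R+1 was 60.1, 61.9 and 60.0% in hypoxia, against 63.6, 65.7 and 60.3% in normoxia, with overlapping groups, and its part in the higher shares was not tested. miR-205 took 4.55 ± 1.29% and miR-203 3.14 ± 0.40% in hypoxia, against 3.41 ± 0.17% and 3.64 ± 0.91% in normoxia.

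**Figure D3:**
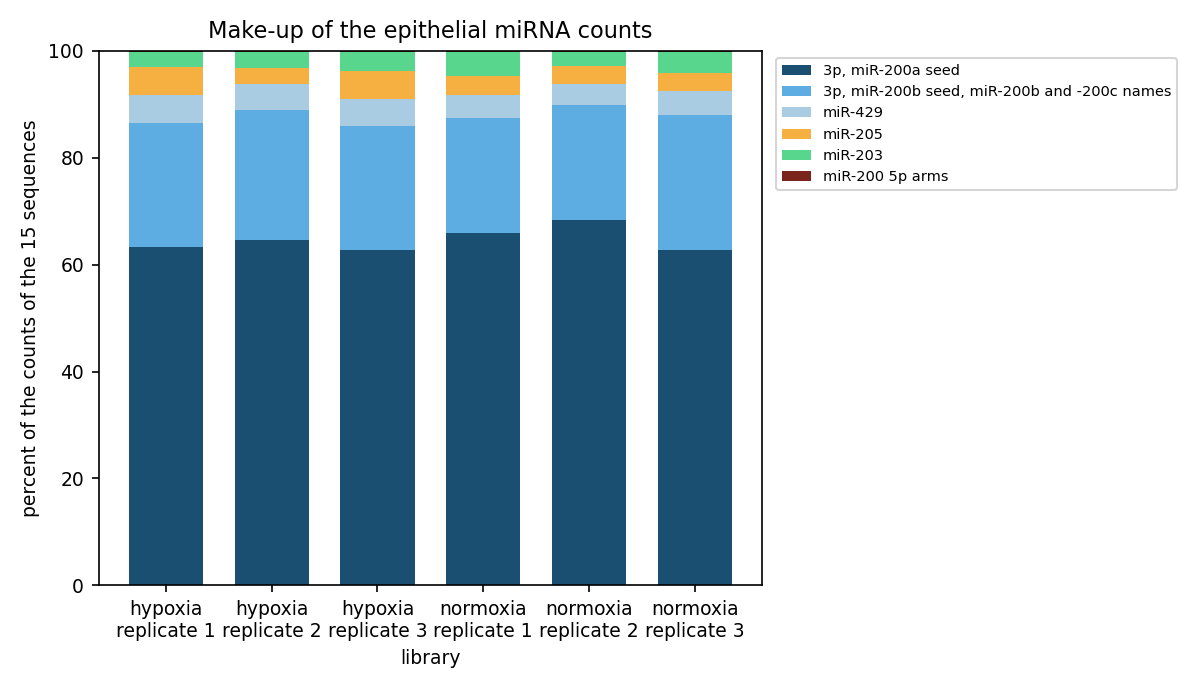
Percent of the counts of the 15 sequences in each library, stacked by seed and family, with the 3 hypoxia libraries left of the 3 normoxia libraries. The miR-200a seed set takes 63.5 ± 0.97% in hypoxia and 65.7 ± 2.81% in normoxia, and the miR-200 5p arms are too few to see.

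Sequences that differ only at the 3′ end were compared as ratios within a library, which do not depend on scaling between libraries. There were 5 such pairs among the tested sequences with counts in every library. For the 21-base ipu-miR-200c_R-1 over the 22-base dre-miR-200b-3p the ratio was 0.392, 0.229 and 0.265 in the hypoxia libraries (replicates 1, 2 and 3), against 0.205, 0.219 and 0.207 in normoxia. Every hypoxia library was higher than every normoxia library, by most in hypoxia replicate 1, and a two-sided exact permutation test gave p = 0.1, which is the smallest that 3 against 3 allows (Benjamini-Hochberg adjusted p = 0.5 over the 5 pairs). Both sequences had fractional counts in hypoxia replicate 2 and normoxia replicates 1 and 3, at 942.5 and 4109.5 counts in the first. No source used here states how reads were divided between entries, and the part of this in the ratio was not tested. The other 4 pairs had overlapping groups and exact permutation p-values of 0.3 to 0.8. For oni-miR-429b over ami-miR-429-3p_R+3, also 1 base apart, the ratio was 5.30 ± 0.45 in hypoxia and 5.74 ± 0.44 in normoxia.

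The same direction was found in pairs of other miRNAs. Among 16 pairs of annotated entries of at least 10 CPM whose shorter sequence lacks 1 base at the 3′ end, the ratio of shorter to longer was higher in every hypoxia library than in every normoxia library in 6 (37.5%), the miR-200 pair included, and lower in 0. The pairs were measured in the same libraries and are not independent. The median over the 16 pairs of the centred log2 ratio was 0.10, -0.00 and 0.10 in the hypoxia libraries (replicates 1, 2 and 3), against -0.13, -0.06 and -0.10 in normoxia.

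**Figure D4:**
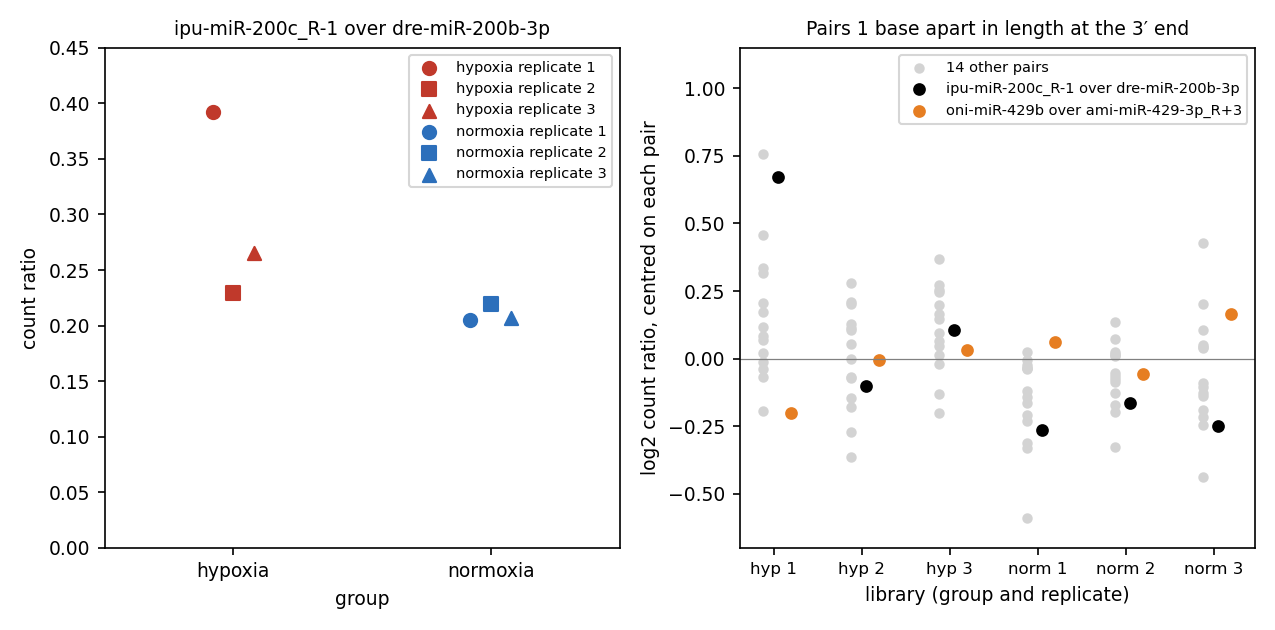
Left, count ratio of the 21-base ipu-miR-200c_R-1 to the 22-base dre-miR-200b-3p by library, at 0.229 to 0.392 in hypoxia and 0.205 to 0.219 in normoxia. Right, log2 count ratio of the shorter to the longer sequence, centred on each pair, for 16 pairs that differ by 1 base at the 3′ end, with the miR-200 pair in black and the miR-429 pair in orange.

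The entries closest to dre-miR-200a-3p_R+1 across libraries belonged to other families. Likeness was the root mean square difference of the log2 of CPM plus 1, centred on each entry over the 6 libraries, so that a lower value is closer. Far more entries lay outside the families than within, so a nearest entry from outside says little about the families. Of 271 annotated entries of at least 10 CPM outside the 5 families, dre-miR-26b was nearest at 0.077, followed by oni-let-7f_R+1 at 0.080 and dre-miR-146a at 0.085, where the median was 0.278. Within the families dre-miR-200b-3p lay at 0.130 and dre-miR-200a-5p_1ss10GT at 0.133, oni-miR-429b at 0.181, oni-miR-203a_L+1_1ss22GT at 0.272 and ccr-miR-205_R+1 at 0.353. The remaining tested sequences lay between 0.191 and 0.516. The minimum of 10 CPM was not applied within the families, so rare sequences with more counting error are included there. dre-miR-26b measured 10179, 10924 and 9848 CPM in hypoxia replicates 1, 2 and 3 and 12546, 13895 and 12892 CPM in normoxia.

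Other miRNAs known from epithelia were followed by family number, in a list that covered the miR-183 cluster of sensory epithelium (miR-182, miR-183 and miR-96), miR-31, miR-34, miR-184 and miR-449. The list held 9 entries, none of them named miR-449, and of the 4 tested none passed in edgeR (2.7% of all tested entries), with 1 at an unadjusted p under 0.05. Its entries summed to 181, 126.2 and 166 CPM in hypoxia, against 121, 93.9 and 106 CPM in normoxia, higher in every hypoxia library. The sum of the miR-200 group, miR-203 and miR-205 was lower, but this contrast rests on 1 entry of the list, dre-miR-34a. That entry made up 137 of a mean of 158 CPM in hypoxia and 83.6 of 107 CPM in normoxia, and its own groups overlapped. The other entries of the list summed to a lower mean in hypoxia than in normoxia, with overlapping groups. dre-miR-34a, a target of p53 in mammals, was the most abundant at 164, 99.6 and 147 CPM in hypoxia replicates 1, 2 and 3, against 100, 72.2 and 78.2 CPM in normoxia. Its log2 fold change of 0.70 ± 0.22 missed the threshold (edgeR, adjusted p = 0.112). The miR-183 cluster was at 10.5 CPM or less in every library, with dre-miR-183-5p_R-1 at 4.63 to 6.81 CPM in hypoxia and 4.87 to 8.18 CPM in normoxia. The log2 fold change of dre-miR-183-5p_R-1 was -0.17 ± 0.36 (edgeR, adjusted p = 0.832). For dre-miR-182-5p_R+2_1ss10GA it was -0.71 ± 0.49 (edgeR, adjusted p = 0.483). The untested oni-miR-96_R-2 was lower in every hypoxia library, at 0 to 1.11 CPM, against 1.20 to 2.00 CPM in normoxia. dre-miR-184_1ss22CT lay the other way, at 0.31 ± 0.33 (edgeR, adjusted p = 0.662).

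Markers of other cell types were measured in the same libraries, and their part in the lower sum of the epithelial miRNAs was not tested. The 6 entries of miR-216, miR-217 and miR-375, known from pancreas, summed to 1121 to 1398 CPM in hypoxia and 1399 to 1653 CPM in normoxia. Of 4 tested, 0 passed and 2 had an unadjusted edgeR p under 0.05, against 18.5% of all tested entries. The most abundant, dre-miR-217_R+1, measured 595, 829 and 573 CPM in hypoxia and 874, 805 and 867 CPM in normoxia. Its groups overlapped, with a log2 fold change of -0.35 ± 0.16 (edgeR, adjusted p = 0.277). dre-miR-375_R-1 measured 74.9, 61.2 and 48.2 CPM in hypoxia and 219, 68.6 and 102 CPM in normoxia, highest in normoxia replicate 1. Its groups overlapped too, with a log2 fold change of -1.10 ± 0.38 (edgeR, adjusted p = 0.151). dre-miR-216a lay the other way, at 430, 265 and 306 CPM in hypoxia, against 255, 291 and 163 CPM in normoxia, with overlapping groups and a log2 fold change of 0.49 ± 0.24 (edgeR, adjusted p = 0.303). The 8 erythrocyte entries of miR-144, miR-451 and miR-486 summed to 7203 to 9174 CPM in hypoxia and 4842 to 5917 CPM in normoxia. Of 7 tested, 2 passed as higher in hypoxia, where 1.54% of all tested entries did. The most abundant, dre-miR-451, lay just under the threshold (edgeR, adjusted p = 0.0494). bta-miR-486 lay lower in every hypoxia library, at 7.78, 11.3 and 12.1 CPM in hypoxia, against 18.4, 13.1 and 32.0 CPM in normoxia, and missed the threshold (edgeR, adjusted p = 0.152). The 5 endothelial miR-126 entries summed to 15768 to 17733 CPM in hypoxia and 11829 to 13516 CPM in normoxia, with 0 of 4 tested passing. The 17 entries of miR-122, miR-192 and miR-194, known from hepatocytes, summed to 238952 to 288063 CPM in hypoxia and 278889 to 290079 CPM in normoxia, with overlapping groups and 0 of 11 tested passing. Per 1000 counts of miR-122 the epithelial sequences took 10.8, 11.6 and 11.8 counts in hypoxia, against 12.7, 12.8 and 11.9 in normoxia. Summed levels also overlapped for leukocyte miR-142, miR-150, miR-155 and miR-223 (0 of 6 tested passing), for stromal miR-143, miR-145, miR-199 and miR-214 (0 of 14) and for muscle miR-1, miR-133 and miR-206 (0 of 5). Within the stromal list, 7 of the 14 tested had a fold change below 1. Among these, dre-miR-145-5p was lower in every hypoxia library, at 1168 to 1296 CPM, against 1514 to 1713 CPM in normoxia. Its log2 fold change was -0.38 ± 0.11 (edgeR, adjusted p = 0.106). The most abundant entries of miR-143, miR-199 and miR-214 had log2 fold changes of 0.02, 0.10 and 0.02, with overlapping groups. No marker family of these cell types lacked an entry.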

How the data were processed

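Small RNA was ligated to adapters, reverse transcribed, amplified by PCR and sequenced with reads truncated to single ends, per the labels' protocols. No source used here gives the aligner, miRNA caller, genome build or filters. The authors deposited estimated counts, unscaled, for 1088 rows, where 70.0% of nonzero values were whole to within 1e-06. Listings of the same sequence carried equal values and were summed. Sequences with identical values and the same species, number and letter in the name were joined in 18 sets, giving 841 entries. Precursors were not looked up for this. Among the nonzero summed values of the 15 sequences, 75 of 81 were whole, and the others all belonged to dre-miR-200b-3p and ipu-miR-200c_R-1. Values were rounded and tested with edgeR 4.0.16 (filterByExpr, TMM, quasi-likelihood F test) on 3 against 3 libraries without a block, with Benjamini-Hochberg adjustment over 519 entries. SE is the absolute log2 fold change over the square root of F. DESeq2 1.42.0 and limma 3.58.1 were alternatives. No pair of replicates of a group agreed within sampling noise (chi-square per degree of freedom of at least 44.7).

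The sequences and lists were chosen with earlier results of these data known. Described in full were the 8 most abundant sequences and the most abundant of each family number, and dre-miR-200a-5p_1ss10GT, hsa-miR-200b-3p_R+2, dre-miR-200c-3p_R+1 and the untested sequences were added after their values were seen.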

Additional observations from a re-analysis of the deposited data

How the results depend on the processing

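No sequence of the 5 families passed under any of the 17 alternatives, with 9 to 15 of them tested. DESeq2 gave no adjusted p for ami-miR-429-3p_R+4. Of 200 recomputed fold changes, 18 had the other sign. They belonged to oni-miR-429b, dre-miR-200c-3p_2ss4TC9CT and hsa-miR-200b-3p_R+2, whose reported values were within 1 SE of 0. The lowest adjusted p was 0.0746, for dre-miR-200b-3p without hypoxia replicate 2 (edgeR, Benjamini-Hochberg). The count over all entries was 14 as reported, 51 with DESeq2, 22 with limma-voom, 59 with no filter, 5 with total counts only, 5 with offsets for GC content and length, 3 with every sequence kept apart, and 0 to 52 with 1 library left out. The last count was 52 without hypoxia replicate 2, 5 without normoxia replicate 3, 2 without hypoxia replicate 3, 1 without hypoxia replicate 1 or normoxia replicate 1 and 0 without normoxia replicate 2. With the replicate number as a block it was 7, and 0 of the 12 sequences passed. Libraries of the same number did not deviate together (correlations of -0.129, -0.055 and -0.046), and 0 of 6 correlated best with its own number in the other group, so the numbers were not taken as pairs. The median log2 fold change of the tested sequences was -0.15 with no filter, 0.0019 with a mean of at least 10 CPM, -0.0050 with listed values taken once, 0.11 with offsets for GC content and length, and -0.33 to -0.021 with 1 library left out. Filters and left-out libraries change which of the rare sequences are tested. The log2 ratio of the summed CPM was -0.24 as reported, -0.19 with total counts only and -0.31 to -0.20 with 1 library left out. The difference of hypoxia minus normoxia in the share of the AACACTG set was -2.17 points, and -3.62 to -0.81 points with 1 library left out. The GC offsets and the fit of every sequence kept apart were added after seeing the data. The shares with 1 library left out, the ratios of 3′ ends and the counts per miR-122 were not planned beforehand either. Depth limits the rare sequences, which had 20 counts or fewer in hypoxia replicate 1.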

Other observations

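A predicted entry outside the 5 families by name, PC-3p-85551_58, carried the AACACTG seed. It was the only other entry of the table with a seed of these sequences, and reads tAACACTGtctggtaatgatga, with the seed in capitals. Over its 22 bases it differed from dre-miR-200c-3p_2ss4TC9CT by C22A, and from dre-miR-200b-3p by T4C and C9T, counted from the 5′ end with the base of the named miRNA first. It had 0, 30 and 9 counts in hypoxia replicates 1, 2 and 3 and 24, 25 and 16 counts in normoxia. The groups overlapped, and its log2 fold change of -0.61 ± 0.74 missed the threshold (edgeR, adjusted p = 0.713).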
